A study of Homo sapiens with 6 samples.

Results

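The 8 genes described here are kallikreins of the chromosome 19 cluster: KLK1, KLK2, KLK3, KLK4, KLK10, KLK11, KLK15 and the pseudogene KLKP1. They were taken by symbol, matched to the Ensembl identifiers of the count files, and they make up 9 of 62696 gene rows because KLKP1 carries 2 identifiers. The counts come from bulk RNA sequencing of C4-2, an established line of castration-resistant human prostate cancer cells, epithelial-like, kept in serum-supplemented RPMI and given no treatment. One group, CDK12KO, holds 3 libraries of C4-2 cells in which CDK12 was knocked out with CRISPR-Cas9. The other, VEC, holds 3 libraries of the vector control line, whose CDK12 is labelled wild type. CDK12 is a cyclin-dependent kinase that acts on RNA polymerase II during elongation, and the series asked what its loss does to castration-resistant cells. Whether replicates came from separate cultures or from separate clones is not stated in the labels, so each p-value reflects only how far these libraries scatter, which may be technical. Loss of CDK12 and any other difference between the 2 lines cannot be told apart. In bulk RNA, fewer cells that express a gene and less RNA per cell cannot be told apart either.

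Tissue kallikreins are secreted serine proteases that are made as inactive precursors and become active once a short leading peptide is cut off, in part by one another. In the prostate, luminal epithelial cells secrete KLK3, the prostate-specific antigen or PSA, which liquefies the seminal clot and whose serum level is used to follow prostate cancer. KLK2, the closest relative of KLK3, can activate its precursor, as can KLK4 and KLK15, and transcription of KLK3 and KLK2 is known to be driven by androgens through response elements near both genes. C4-2 cells secrete PSA.

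Promoter sequence was available for 6 of the 8 genes in 10 windows of 300 bases (RefSeq, GRCh38.p14), each with 250 bases before a transcription start. Upstream stretches of KLK3, KLK4 and KLK15 are shown 5′ to 3′ because these are the best expressed members with such a window outside annotated exons. The capitals mark the closest match to the androgen response element in KLK3 and a TATAA box in KLK4 and KLK15. They stand at chr19:50854665-50854914 on the plus strand for KLK3, at chr19:50911396-50911645 on the minus strand for KLK4 and at chr19:50833575-50833824 on the minus strand for KLK15.
KLK3: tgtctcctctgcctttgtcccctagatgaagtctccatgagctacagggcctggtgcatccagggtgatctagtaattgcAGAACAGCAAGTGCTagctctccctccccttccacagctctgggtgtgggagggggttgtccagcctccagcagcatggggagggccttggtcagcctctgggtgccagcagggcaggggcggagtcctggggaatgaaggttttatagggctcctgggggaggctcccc
KLK4: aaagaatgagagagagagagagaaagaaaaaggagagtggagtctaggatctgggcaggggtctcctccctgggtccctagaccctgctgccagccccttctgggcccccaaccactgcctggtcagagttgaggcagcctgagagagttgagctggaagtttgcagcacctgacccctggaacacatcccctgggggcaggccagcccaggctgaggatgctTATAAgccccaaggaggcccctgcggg
KLK15: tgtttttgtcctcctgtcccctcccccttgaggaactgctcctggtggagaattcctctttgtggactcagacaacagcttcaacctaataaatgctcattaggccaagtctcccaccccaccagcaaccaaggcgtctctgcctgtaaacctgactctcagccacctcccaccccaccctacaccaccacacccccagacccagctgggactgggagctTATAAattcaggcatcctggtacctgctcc

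The androgen response element was searched as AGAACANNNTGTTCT on both strands, with up to 2 mismatches allowed over its 12 fixed positions. Among the member windows it was found only in that of KLK3, from 170 to 156 bases before the start, and 1.41% of 35116 RefSeq promoter windows held such a match. With up to 3 mismatches KLK2 also held one, from 176 to 162 bases before its start, a looser rule that 10.8% of all windows met. Counted from 1 at the element's 5′ end, the KLK3 element differs from the searched motif by T10A and T13G, and the KLK2 element differs from that of KLK3 by A1G alone. The letters TATAA on the gene's own strand were found in 1 window each of KLK4, at 27 to 23 bases before the start, and KLK15, at 30 to 26 bases, and in 14.8% of all windows. These matches describe letters only and do not show binding. The 30 bases around both elements, which lie at chr19:50854738-50854767 for KLK3 and at chr19:50873256-50873285 for KLK2, both on the plus strand, are set side by side with the element in capitals.
KLK3 element: taattgcAGAACAGCAAGTGCTagctctcc
KLK2 element: tatgtgtGGAACAGCAAGTGCTggctctcc

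Over the 250 bases upstream, KLK2 and KLK3 were identical at 205 of 238 aligned positions, or 86.1%, while all other pairs of member windows aligned at 51.7% to 66.0%. Their coding sequences were as close, with 668 of 783 bases identical (85.3%). KLK1, a kinin-releasing protease of glandular tissues, matched KLK2 at 76.5% and KLK3 at 74.4% of aligned coding bases, and the other coding pairs ranged from 59.7% to 68.0%. Few reads could be shared between them, since stretches of 50 bases found in any other gene's transcripts made up 0.215% of those of KLK3, shared with KLK2, and 0.449% of those of KLK2. KLK1, KLK4 and KLK15 shared none. Nor did KLKP1 under its GENCODE 29 identifier, but its counts fall under another identifier, which was not examined.

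The libraries held 26357250 to 30732841 reads in CDK12KO and 24660798 to 25879375 in VEC, of which 18333400 to 21590817 in CDK12KO and 16617644 to 18178467 in VEC were counted in genes. CDK12KO library 2 stood apart from the other 5. Across genes, the correlation of its log2 CPM (library-scaled counts) with the others was 0.916 to 0.950, against 0.977 to 0.990 among those 5, and its TMM factor, edgeR's between-library scaling, was 0.737 against 1.04 to 1.10. Results are therefore given with all 6 libraries and without that library (the fit of 5 libraries). CDK12 RNA itself averaged 58.1 ± 2.35 CPM in CDK12KO and 55.1 ± 6.35 CPM in VEC (SD, n = 3 each), a gene-wide level that says nothing of its reading frame. Summed over 6 prostate luminal markers, all tested, levels were 2325 to 3699 CPM in CDK12KO and 2666 to 2799 CPM in VEC. Single luminal genes were uneven, with HOXB13 at 477 CPM in CDK12KO and 429 CPM in VEC on average. ACP3 averaged 8.89 CPM in CDK12KO and 10.3 CPM in VEC. Of the 6, SLC45A3 was called lower in both fits and 0 were called higher (edgeR). Of all tested genes 0.177% were called lower with all libraries and 8.88% in the fit of 5 libraries. The 4 basal markers summed to at most 1.76 CPM in CDK12KO and 0.824 CPM in VEC, with TP63 at 0 counts in every library. The 6 neuroendocrine markers summed to at most 6.86 CPM in CDK12KO and 11.9 CPM in VEC, with CHGA at 143 counts in VEC library 1, 3 and 1 in VEC libraries 2 and 3 and 0 in CDK12KO. The 10 stromal, endothelial and immune markers summed to 29.7 to 39.4 CPM in CDK12KO and 27.1 to 28.7 CPM in VEC, most of it COL1A1 at 25.7 CPM in CDK12KO and 20.5 CPM in VEC on average. PECAM1, CD3E and DCN had 0 counts in every library. In the fit of 5 libraries VWF, at 8.23 CPM in CDK12KO and 4.61 CPM in VEC over all libraries, was called higher (adjusted p = 0.0263, edgeR). COL1A2, with 0 counts in CDK12KO and 22, 20 and 10 in VEC, was called lower (adjusted p = 0.000704, edgeR). Their part in the results was not tested.

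KLK3 was by far the most abundant kallikrein. On a per-length scale (TPM, counts per exon length scaled to a common total, over GENCODE 29 exons and without TMM factors) it averaged 2743 ± 341 in CDK12KO and 3600 ± 256 in VEC (SD, n = 3 each). It ranked between 30 and 51 among protein-coding genes in CDK12KO libraries and between 19 and 20 in VEC libraries. KLK4 and KLK2 followed an order of magnitude lower, at 235 ± 20.7 TPM and 190 ± 15.2 TPM in CDK12KO and at 226 ± 3.43 TPM and 280 ± 21.3 TPM in VEC. In TPM their order differed between the lines, with KLK4 above KLK2 in every CDK12KO library and KLK2 above KLK4 in every VEC library. That crossing depends on the exon length assigned to KLK2. In counts KLK2 exceeded KLK4 in every library, with 2.61 to 2.73 KLK2 counts per KLK4 count in CDK12KO and 3.82 to 4.32 in VEC. KLK15 averaged 32.4 ± 0.914 TPM in CDK12KO and 30.8 ± 2.93 TPM in VEC, and KLK1 3.37 ± 0.812 TPM in CDK12KO and 1.93 ± 0.1995 TPM in VEC. KLK10 and KLK11 were close to 0, with 1 count in CDK12KO and 1 in VEC for KLK10 and with 2 and 13 counts for KLK11, all 13 from VEC library 1. Neither passed the filter on low counts. KLKP1, an androgen-responsive pseudogene transcript between KLK2 and KLK4, had 0 counts under ENSG00000197588 and 447 under ENSG00000290915, which has no coordinates in GENCODE 29 and hence no TPM.

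**Figure D1:**
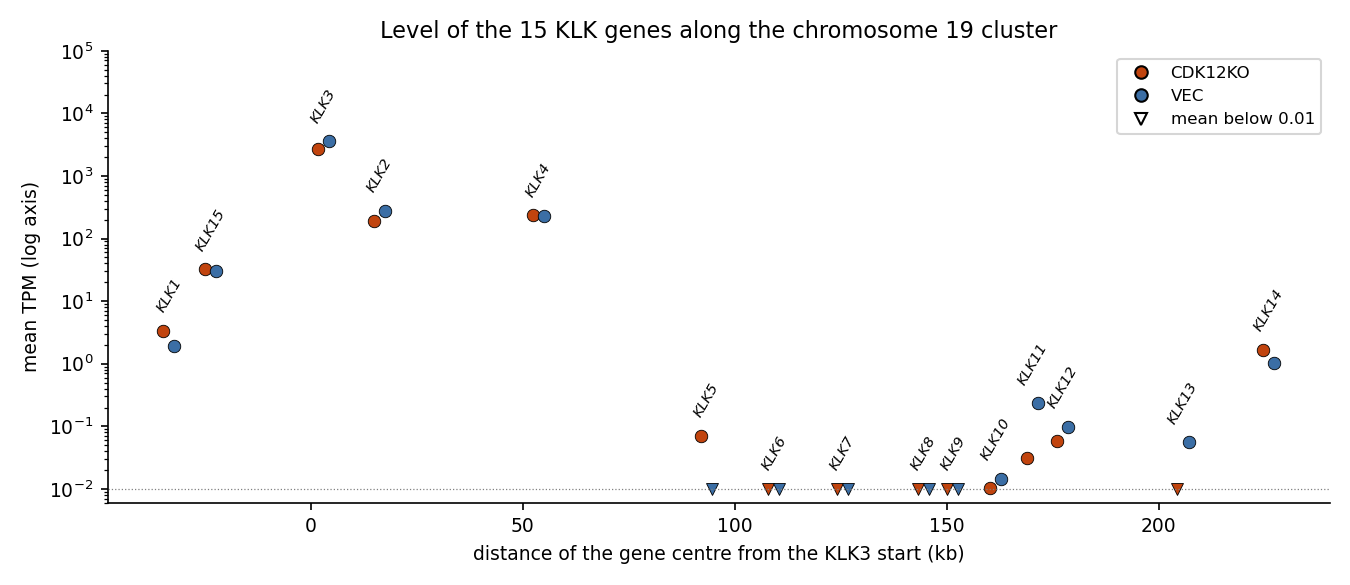
Mean TPM (log axis) of the 15 KLK genes against the distance of the gene's centre from the start of KLK3 (kb), CDK12KO in orange and VEC in blue, n = 3 libraries each, with triangles for means below 0.01. The genes with more than 1 TPM are KLK1, KLK15, KLK3, KLK2 and KLK4 at one end and KLK14 at the other. KLKP1 is not drawn because its counted identifier has no coordinates in GENCODE 29.

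The cluster spans 265.098 kb, from 50819148 to 51084245 on chromosome 19 (GRCh38, GENCODE 29). Expression was concentrated at its KLK1 end, where KLK1 (50819148 to 50823787), KLK15 (50825289 to 50837213), KLK3 (50854915 to 50860764), KLK2 (50861568 to 50880567) and KLK4 (50906352 to 50910738) lie in that order. KLK3 and KLK2 are on the plus strand and KLK1, KLK15 and KLK4 on the minus strand. Of the 8 cluster genes outside the list, KLK6, KLK7, KLK8 and KLK9 had 0 counts. A count of 0 allows up to 0.0498 CPM over the 60209095 counted reads of CDK12KO and 0.0576 over the 52045866 of VEC, by counting error only. KLK5, KLK12 and KLK13 had 2 to 5 counts over all libraries. KLK14, at the far end, was the one other gene that passed the filter, with 12, 18 and 13 counts in CDK12KO and 10, 3 and 8 counts in VEC. Its log2 fold change was 1.04 (adjusted p = 0.270, edgeR's quasi-likelihood test), and 0.70 in the fit of 5 libraries (adjusted p = 0.473, edgeR).

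KLK3 did not pass the test with all 6 libraries. It had 4307, 5847 and 4459 CPM in CDK12KO libraries 1 to 3 and 5227, 5092 and 5238 CPM in VEC libraries 1 to 3 (TMM-scaled). CDK12KO libraries 1 and 3 lay below every VEC library and CDK12KO library 2 lay above them, so the groups overlapped. The log2 fold change was -0.09 ± 0.23 (SE; adjusted p = 0.808, edgeR). Without CDK12KO library 2 KLK3 fell by 0.25 ± 0.07 on the log2 scale, to 0.842 times the VEC level, with an edgeR adjusted p of 0.0130. With 1 further library left out that call was lost in 3 of 5 cases, with an edgeR adjusted p of 0.216 without CDK12KO library 1, 0.150 without CDK12KO library 3 and 0.103 without VEC library 1. It held without VEC library 2 (adjusted p = 9.31e-05, edgeR) and without VEC library 3 (adjusted p = 0.0181, edgeR). The place of CDK12KO library 2 turned with the scaling. Before TMM factors KLK3 had 2355 TPM there, the lowest of all 6 libraries, against 2874 and 2998 TPM in CDK12KO libraries 1 and 3 and 3714, 3307 and 3779 TPM in VEC. Scaling by total gene counts moved the median log2 fold change of all tested genes to -0.18 and that of KLK3 to -0.30 ± 0.13 (adjusted p = 0.336, edgeR).

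KLK2, the protease closest to KLK3, had the firmer difference. It had 408, 590.0 and 410.2 CPM in CDK12KO libraries 1 to 3 and 547, 546 and 573 CPM in VEC libraries 1 to 3. After TMM scaling CDK12KO libraries 1 and 3 were again below every VEC library and CDK12KO library 2 above them. In TPM, without TMM factors, CDK12KO library 2 was instead the lowest of the 6, with 172 TPM against 197 and 200.1 TPM in CDK12KO libraries 1 and 3 and 282, 257 and 299.6 TPM in VEC. Over all 6 libraries the log2 fold change was -0.24 ± 0.19 (adjusted p = 0.422, edgeR). With that library left out KLK2 fell by 0.45 ± 0.06 on the log2 scale, to 0.733 times the VEC level (adjusted p = 5.30e-05, edgeR). It ranked 235 of 16339 genes by p in that fit, and its adjusted p was at most 0.00544 in the 13 further alternatives to it.

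KLK4, which is known from tooth enamel as well as from prostate and can activate the KLK3 precursor, lay on the other side. It had 149, 220.3 and 157 CPM in CDK12KO libraries 1 to 3 and 133, 143 and 133 CPM in VEC libraries 1 to 3. After TMM scaling every CDK12KO library was above every VEC library. In TPM, without TMM factors, CDK12KO library 2 was instead the lowest of all libraries, at 213 TPM. CDK12KO libraries 1 and 3 had 239 and 254 TPM there, and the VEC libraries 222 to 229 TPM. The log2 fold change did not pass the test, at 0.37 ± 0.17 (adjusted p = 0.253, edgeR), and 0.17 ± 0.07 without CDK12KO library 2 (adjusted p = 0.0921, edgeR).

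KLK15, less abundant than KLK3, KLK2 and KLK4 and an activator of the KLK3 precursor, had 24.5, 38.4 and 24.0 CPM in CDK12KO libraries 1 to 3 and 23.7, 22.6 and 19.6 CPM in VEC libraries 1 to 3. After TMM scaling the groups did not overlap, by a narrow gap. In TPM they overlapped, at 31.3 to 33.1 in CDK12KO and 28.6 to 34.1 in VEC. The log2 fold change was 0.40 ± 0.21 (adjusted p = 0.285, edgeR) and 0.14 ± 0.11 without CDK12KO library 2 (adjusted p = 0.441, edgeR). An antisense transcript, ENSG00000267968, overlaps KLK15 on the plus strand, and the counts do not separate strands. The 2 stranded count columns together exceeded the unstranded count of KLK15 by 1.49%, against 0.162% for KLK4 and 0.00322% for KLK3.

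KLK1 had the widest ratio and the fewest reads of the tested coding members. It had 42, 85 and 49 counts, or 1.98, 5.35 and 2.53 CPM, in CDK12KO libraries 1 to 3 and 24, 28 and 27 counts, or 1.23, 1.57 and 1.48 CPM, in VEC libraries 1 to 3. All CDK12KO libraries were above all VEC libraries, with library 2 highest. The log2 fold change was 1.19 ± 0.42 (edgeR unadjusted p = 0.0237, adjusted p = 0.209). In the fit of 5 libraries it was 0.65 ± 0.32 (adjusted p = 0.166, edgeR). KLKP1, under its counted identifier, had 3.63, 4.97 and 3.05 CPM in CDK12KO libraries 1 to 3 and 3.33, 4.37 and 4.89 CPM in VEC libraries 1 to 3, with overlapping groups. Its log2 fold change was -0.11 ± 0.27 (adjusted p = 0.795, edgeR), and -0.33 ± 0.24 without CDK12KO library 2 (adjusted p = 0.373, edgeR).

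**Figure D2:**
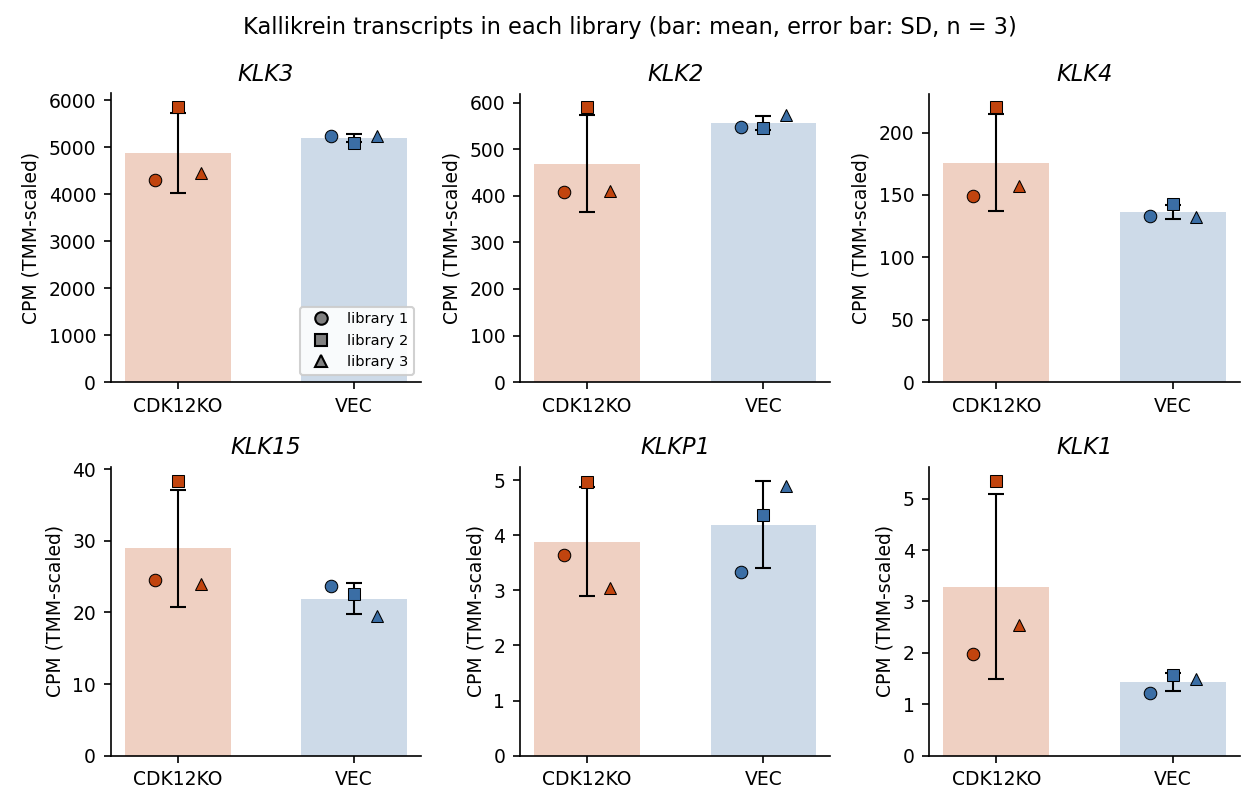
TMM-scaled CPM of the 6 tested kallikrein transcripts in each library, CDK12KO left and VEC right in each panel, with bars for the mean and error bars for the SD (n = 3), and a circle, square and triangle for libraries 1, 2 and 3. CDK12KO library 2 is the highest CDK12KO library in all 6 panels, and in KLK3, KLK2 and KLKP1 it alone lies above all VEC libraries.

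Counted together, 6 of the 8 genes passed the filter on low counts. With all 6 libraries 0 of these 6 were called at an adjusted p under 0.05 by edgeR, DESeq2 or limma-voom. Of all 15783 tested genes edgeR called 94, or 0.596%, DESeq2 980 and limma-voom 105. Of the 6, 1, KLK1, had an unadjusted edgeR p under 0.05, as did 3420 of the 15783. In the fit of 5 libraries the count was 2 of 6, KLK3 and KLK2, both lower, where 19.1% of all genes were called, 10.2% higher and 8.88% lower. The median log2 fold change of the 6 was 0.14 with all libraries and -0.06 without that one, against 0.00 and -0.01 over all tested genes. The group ranges of 3 of the 6, KLK1, KLK4 and KLK15, did not overlap, all higher in CDK12KO, where 39.4% of all genes had groups apart and 20.4% were apart and higher in CDK12KO. In TPM, which carries no TMM factor and for which KLKP1 has no value, the groups of KLK3 and KLK2 lay apart and lower in CDK12KO, those of KLK1 apart and higher, and those of KLK4 and KLK15 overlapped. No test of the list as a whole was made.

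**Figure D3:**
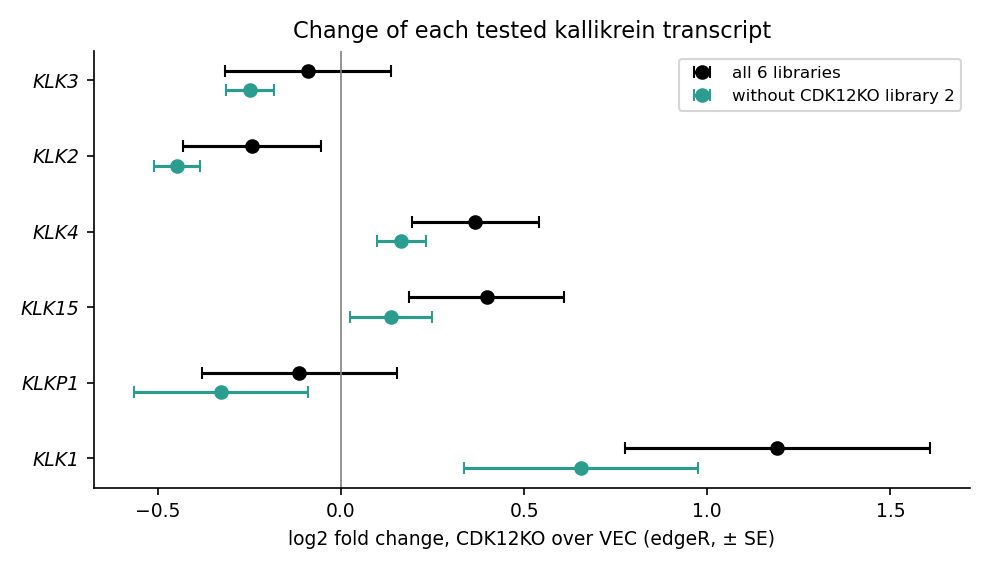
Log2 fold change of CDK12KO over VEC in edgeR for the 6 tested kallikrein transcripts, with error bars for the SE, from all 6 libraries in black and without CDK12KO library 2 in green. Without that library every estimate lies further to the lower side, and the error bars of KLK3, KLK2 and KLK4 are shorter than ±0.1.

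Ratios between kallikreins of the same library do not depend on how libraries are scaled. KLK2 stood at 94.6, 101 and 92.0 counts per 1000 KLK3 counts in CDK12KO libraries 1 to 3, and at 105, 107 and 109 in VEC libraries 1 to 3. CDK12KO library 2 was on the same side as the other CDK12KO libraries here. For KLK4 the values per 1000 KLK3 counts were 34.7, 37.7 and 35.3 in CDK12KO and 25.5, 28.1 and 25.3 in VEC. For KLK15 they were 5.68, 6.56 and 5.38 in CDK12KO and 4.53, 4.43 and 3.73 in VEC. KLK1 had 0.460, 0.915 and 0.568 counts per 1000 KLK3 counts in CDK12KO and 0.235, 0.308 and 0.283 in VEC. Each of the 4 ratios to KLK3 separated all CDK12KO from all VEC libraries, downwards for KLK2 and upwards for KLK4, KLK15 and KLK1.

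**Figure D4:**
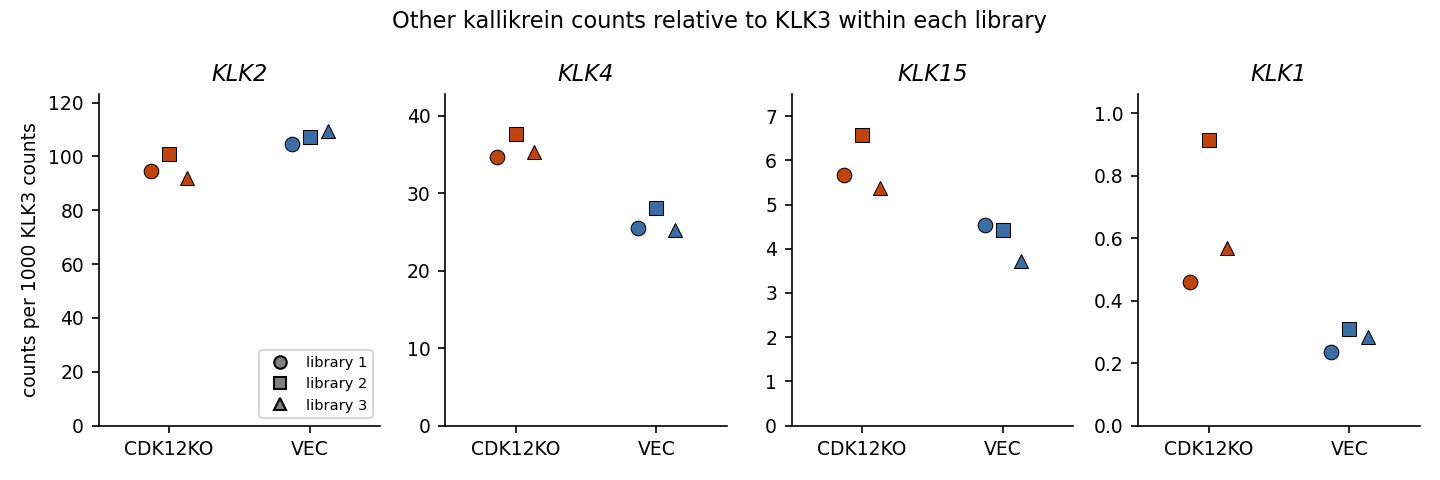
Counts of KLK2, KLK4, KLK15 and KLK1 per 1000 KLK3 counts in the same library, CDK12KO left and VEC right, with a circle, square and triangle for libraries 1, 2 and 3. The CDK12KO libraries lie at 92.0 to 101 for KLK2, below the VEC libraries at 105 to 109, and above the VEC libraries for the other genes.

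Of the 15 ratios among the 6 tested members, 11 did not overlap between the groups. For each of these the two-sided exact permutation p was 0.1, the smallest that 3 against 3 libraries allow, and 0.136 after Benjamini-Hochberg adjustment over the 15, so none could pass the threshold. The 15 ratios, which include those to KLK3 above, reuse the same 6 genes and are not independent. Among single tested genes 39.4% had TMM-scaled groups apart, and the share for ratios of other gene pairs was not examined. The KLK2 to KLK3 ratio differed by -0.16 on the log2 scale (CDK12KO minus VEC), the KLK3 to KLK4 ratio by -0.45 and the KLK2 to KLK4 ratio by -0.61. Leaving out CDK12KO library 2, these differences were -0.20, -0.41 and -0.61. The KLK1 to KLK3 ratio differed by 1.18, and by 0.90 without that library. The ratio of KLK4 to KLK15 overlapped between the groups, with 6.13 ± 0.410 KLK4 counts per KLK15 count in CDK12KO and 6.24 ± 0.583 in VEC (SD, n = 3 each; exact permutation p = 0.8). KLK3 and KLKP1 also overlapped, with a difference of 0.02 on the log2 scale (exact permutation p = 0.8), and a p of this size does not show that they were equal.

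As shares of the kallikrein counts, KLK3 made up 87.8 ± 0.533% in CDK12KO and 87.8 ± 0.208% in VEC (SD, n = 3 each; exact permutation p = 0.9). KLK2 made up 8.41 ± 0.351% in CDK12KO and 9.40 ± 0.186% in VEC, and KLK4 3.15 ± 0.122% in CDK12KO and 2.31 ± 0.132% in VEC. KLK15 made up 0.516 ± 0.0508% in CDK12KO and 0.372 ± 0.0385% in VEC. The family as a whole took 0.511%, 0.494% and 0.533% of all gene counts in CDK12KO libraries 1 to 3 and 0.638%, 0.602% and 0.654% in VEC libraries 1 to 3. The groups did not overlap, and the two-sided exact permutation p was 0.1, the smallest possible. That share is not TMM-scaled. On the scale of total gene counts the median log2 fold change of all tested genes was -0.18. Without CDK12KO library 2 that median was -0.03. The difference in family share (CDK12KO minus VEC) was -0.119 percentage points with all libraries and -0.109 without that library.

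As a description over the 6 libraries, which bring the same depth and scaling to every gene, the members paired unevenly. Log2 CPM of KLK3 and KLK2 correlated at r = 0.953, KLK4 and KLK1 at 0.983 and KLK4 and KLK15 at 0.954, while KLK2 and KLK4 stood at 0.135. CDK12KO library 2, highest for all 5, weighs on each of these values. The protein-coding genes whose log2 CPM was most like that of KLK3 over 6 libraries, out of 9761 ranked, were IDNK (r = 0.990), SFXN5 (0.986), PECR (0.985), VMA21 (0.985) and MAP9 (0.979). Over the other 5 libraries these correlations were 0.990 for IDNK, 0.979 for SFXN5, 0.974 for PECR, 0.978 for VMA21 and 0.987 for MAP9. Those 5 libraries are among the 6 by which the genes were picked, so these values are no independent check.

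KLK3 and KLK2 are classical androgen targets, so cofactors of androgen signalling and other androgen targets were read from the same fits. FOXA1, a pioneer factor that opens chromatin for androgen signalling, had 235 ± 57.0 CPM in CDK12KO and 345 ± 26.1 CPM in VEC, with non-overlapping groups and a log2 fold change of -0.55 ± 0.20 (adjusted p = 0.214, edgeR). With CDK12KO library 2 left out FOXA1 fell by 0.37 ± 0.07 on the log2 scale (adjusted p = 0.00136, edgeR). HOXB13, a prostate homeobox factor, had a log2 fold change of 0.16 (adjusted p = 0.573, edgeR) and -0.02 without that library (adjusted p = 0.869, edgeR). Of 15 cofactor genes 0 were called with all libraries, and 3 had an unadjusted edgeR p under 0.05, as did 3420 of all 15783 tested genes. In the fit of 5 libraries MED1, a Mediator subunit, rose by 0.51 (adjusted p = 0.00196, edgeR), and 2 fell, FOXA1 and the acetyltransferase EP300, the second by 0.51 (adjusted p = 0.00285, edgeR). These 3 of 15 stand beside 19.1% of all genes called in that fit.

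Among 23 tested androgen targets outside the kallikreins, 2 fell and 0 rose with all 6 libraries, and 15 fell and 0 rose without CDK12KO library 2. Of all tested genes 0.177% were called lower in the first fit and 8.88% in the second. The list was chosen with earlier results of these data known, so its counts are no independent comparison with those shares. Their median log2 fold change was -0.41 with all libraries and -0.45 without that one, against 0.00 and -0.01 over all tested genes. SLC45A3, a solute carrier of luminal cells, fell by 1.08 ± 0.16 with all libraries (adjusted p = 0.0440, edgeR), and the cold-sensing channel TRPM8 by 1.24 ± 0.18 (adjusted p = 0.0375, edgeR). Without CDK12KO library 2 the transcription factor MAF fell by 1.57 ± 0.29 (adjusted p = 0.000876, edgeR) and FKBP5, a cochaperone of steroid receptors, by 0.65 ± 0.07 (adjusted p = 2.18e-06, edgeR). In the same fit the estimates of KLK3, at -0.25, and KLK2, at -0.45, lay within the range of these targets, and the difference between them and the list was not tested.

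**Figure D5:**
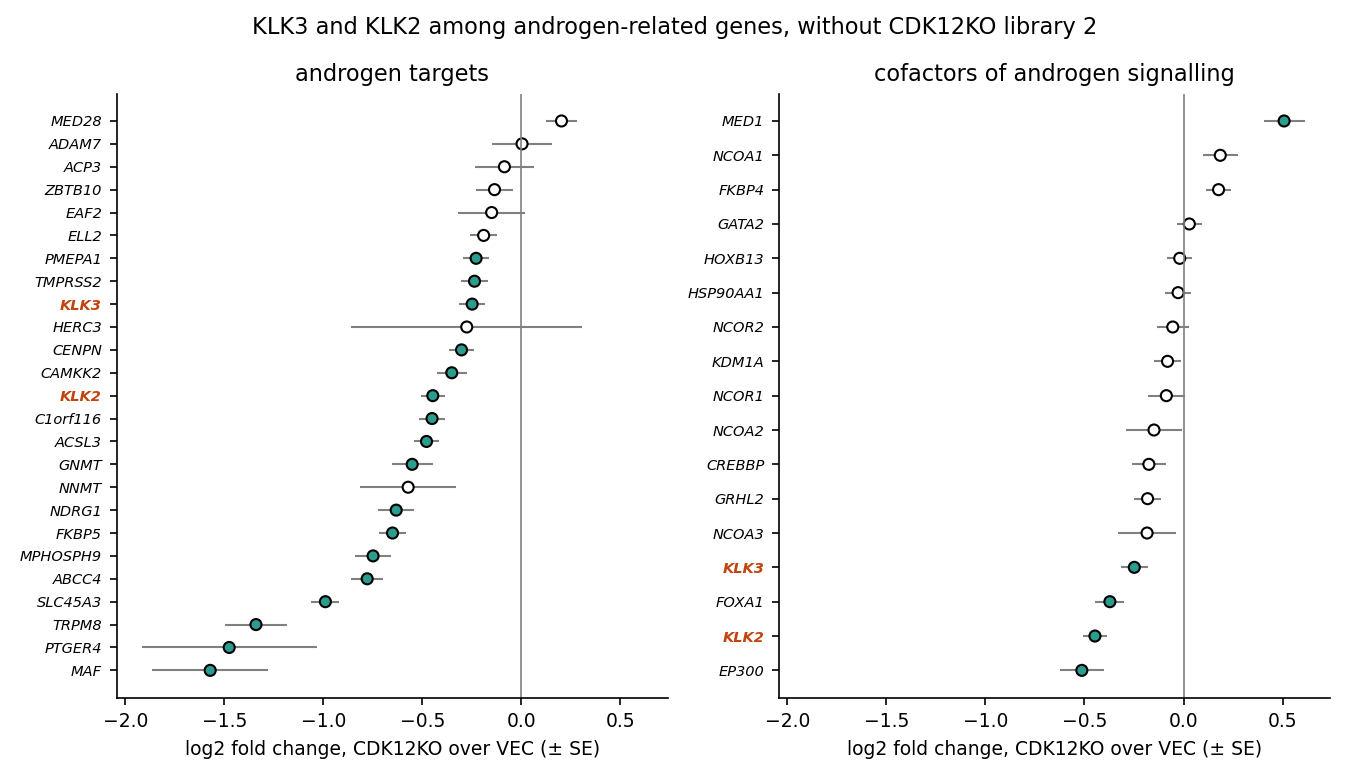
Log2 fold change of CDK12KO over VEC without CDK12KO library 2 (edgeR, bars for the SE), for androgen targets on the left and cofactors of androgen signalling on the right, filled where the adjusted p was under 0.05. KLK3 and KLK2, in orange, are drawn in both panels for comparison, at -0.25 and -0.45.

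Genes that act on the kallikrein proteins were read from the same fits. Of 11 inhibitors 3 passed the filter, SERPINB6, SPINT1 and SPINT2, and 0 were called with or without CDK12KO library 2. None had an unadjusted edgeR p under 0.05 with all libraries, while SERPINA3, the main serum inhibitor that binds PSA, averaged 0.0802 ± 0.0975 CPM in CDK12KO and 0.0357 ± 0.0310 CPM in VEC and was not tested. Of 6 proteases that can activate other serine proteases 5 were tested and 0 called with all libraries. Without CDK12KO library 2, PRSS8 (prostasin) rose by 0.49 ± 0.08 (adjusted p = 0.000487, edgeR) and HPN (hepsin) by 0.36 ± 0.07 (adjusted p = 0.00123, edgeR), and TMPRSS2 fell by 0.24 ± 0.07 (adjusted p = 0.0221, edgeR). Of 10 known substrates 6 were tested, and IGFBP3, an insulin-like growth factor binding protein that PSA cleaves, was the one called with all libraries. It had 64.6 ± 3.43 CPM in CDK12KO and 3.30 ± 0.776 CPM in VEC, a rise of 4.29 ± 0.19 on the log2 scale (adjusted p = 0.000389, edgeR). Leaving out CDK12KO library 2, FN1 (fibronectin) rose by 0.92 ± 0.08 (adjusted p = 3.19e-07, edgeR), the thrombin receptor F2R by 1.07 ± 0.26 (adjusted p = 0.00734) and F2RL1, a receptor that proteases switch on, by 0.30 ± 0.10 (adjusted p = 0.0470). The laminin chain LAMA1 fell by 1.40 ± 0.19 in that fit (adjusted p = 3.89e-05, edgeR). Across all tested genes 0.596% were called with all libraries, and 3420 of 15783 had an unadjusted edgeR p under 0.05. In the fit of 5 libraries 19.1% were called, 10.2% higher and 8.88% lower. Whether these lists differ from those shares was not tested. The semenogelins, the main PSA substrates of seminal fluid, were near 0, with SEMG1 and SEMG2 below the filter.

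Genes around the cluster were examined for a regional change. Of 43 genes annotated within 200 kb of it 19 had counts and 10 were tested, and 0 were called with all 6 libraries. In the fit of 5 libraries 3 rose and 0 fell. C19orf81 rose by 2.34 ± 0.64 (adjusted p = 0.0142, edgeR), on 6, 2 and 2 counts in VEC. CLEC11A rose by 0.43 ± 0.10 (adjusted p = 0.00551, edgeR) and C19orf48P by 0.20 ± 0.06 (adjusted p = 0.0376, edgeR). All 3 lie on the KLK1 side, but CTU1 was the only gene tested on the KLK14 side. The estimate for CTU1 was 0.27 ± 0.09, not called (adjusted p = 0.0518, edgeR). Of all genes 10.2% were called higher in that fit. The 3 did not move in the direction of KLK3 and KLK2. They moved in that of KLK1, KLK15 and KLK4, whose estimates of 0.65, 0.14 and 0.17 there were not called.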

How the data were processed

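Total RNA from 3 CDK12KO and 3 VEC libraries of C4-2 cells was sequenced, with libraries made with a SMARTer kit per the labels' protocols. FastQC, STAR and GRCh38 were used, per the submitters' processing notes. Neither their versions nor the annotation that was counted is given in the sources used here. The authors deposited whole-number read counts per gene, not normalised, in the layout of STAR gene counts with 1 unstranded and 2 stranded columns and 62696 gene rows. Left out of library sizes and of all tests, the 4 summary rows held, over the libraries, 11.1% to 14.4% ambiguous, 3.62% to 7.45% outside genes, 6.49% to 8.73% multimapping and 4.07% to 5.51% unmapped reads. The stranded columns had sums within a ratio of 1.02 to 1.04, so the unstranded column was used, and antisense reads cannot be told apart from a gene's own. Genes that overlap are undercounted, since ambiguous reads enter no gene row.

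The fits used edgeR 4.0.16 in R 4.3.3 (TMM, filterByExpr, robust quasi-likelihood test, no block) over all genes, with p-values adjusted by Benjamini-Hochberg and called under 0.05, on 6 libraries (15783 genes) and without CDK12KO library 2 (16339 genes). The SE is the log2 fold change divided by the square root of F. The members, lists and tests were chosen with earlier results of these data known. All 8 members are named, of other lists at most 4 called genes, by smallest adjusted p with all 6 libraries, with FOXA1 and HOXB13 always and the 5 genes most correlated with KLK3. ACP3, SERPINB6, SPINT1, SPINT2, SERPINA3, F2RL1, the semenogelins and the flanking genes were named after their values were seen. Some genes of these lists are not reported here, and no count over a list includes them. The fit was tested on simulated data. Ratios and shares used exact permutation tests (scipy 1.17.1). Any 2 libraries of a group differed beyond sampling noise (chi-square per degree of freedom of 3.27 or more). Names came from an identifier table that matched 62672 of 62696 rows, coordinates and exon lengths from GENCODE 29, perhaps not the release the authors counted, and promoters from RefSeq. Alternatives were other scaling, filters, stranded sums, DESeq2 1.42.0, limma 3.58.1 (voom), a replicate block and leaving out each library. Those applied on top of leaving out CDK12KO library 2 were partly added after the data were seen.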

Additional observations from a re-analysis of the deposited data

How the results depend on the processing

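With all 6 libraries the number of kallikreins called was 0 under every alternative except leaving out CDK12KO library 2 (range 0 to 2 over the libraries left out). Without that library it was 2, and 1 to 3 with a further library left out. The directions of KLK1, KLK2, KLK3, KLK4 and KLK15 held in all alternatives run. KLKP1 ran from -0.33 to 0.0356 on the log2 scale over the libraries left out, with positive values of 0.0356 without CDK12KO library 3 and 0.0087 without VEC library 3. The difference in KLK3 share of kallikrein counts, -0.0239 percentage points, ran from -0.222 to 0.279 and was positive at 0.279 without CDK12KO library 2 and at 0.0924 without VEC library 1. The KLK3 to KLK2 ratio kept its direction. Genes called in all, 94 with 6 libraries, came to 39 with total counts as library size, 363 without a filter, 60 with at least 10 counts per library, 980 in DESeq2 and 4 to 3123 with a library left out. Without CDK12KO library 2 the 3123 ran from 1134 to 4703 with a further library left out. The cause was not tested.

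The replicate block gave 5 called genes with 6 libraries and 5540 without CDK12KO library 2, where KLK4 was also called (edgeR log2 fold change 0.20, adjusted p = 0.000948). In that block fit VEC library 2 had no partner of its number and so told nothing of the group difference. Little was left there from which to gauge scatter, so its p-values are weakly founded. KLK4 was also called with no block when CDK12KO library 2 and VEC library 2 were both left out (adjusted p = 0.00808, edgeR). The group difference rests on the same libraries in both fits, so they are not separate checks. Same-numbered libraries had deviations correlated at 0.135, 0.194 and 0.0841, so the numbers were not taken as pairs, although 6 of 6 libraries matched their own number best, a hint from the data and not the design. In the promoters 0 member windows held the androgen response element with up to 1 mismatch and 2 with up to 3. Depth limits KLK1 and KLKP1, with 24 to 89 counts a library, and KLK10 and KLK11, which were not testable.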
